A study of Mus musculus with 6 samples.

Results

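DNA methylation was examined at 5 genes linked to the suppression of colorectal tumours: Trp53, Cdkn1a, Msh6, Mcc and Dcc. They were chosen by name among the 19639 genes annotated on the part of the genome used, and each was taken as its annotated span plus 1000 bases on each side. The 6 libraries came from mouse intestinal organoids (gut epithelium grown as hollow or budding bodies in culture) and were made by reduced representation bisulfite sequencing, a method that samples the CpG-rich share of the genome. The cells were labelled as primary cells with the genotype Apc Min, an allele that truncates the Wnt pathway inhibitor Apc. All organoids, controls included, carried this genotype and were kept in low glutamine medium. Of the biological replicates 3 had the control treatment and 3 had DM-aKG (dimethyl α-ketoglutarate, a form of α-ketoglutarate that enters cells). The labels leave out the dose and duration of DM-aKG and the age of the mice. They also leave out whether replicates came from separate mice or separate cultures. A p-value therefore measures the spread between these replicates, which may be technical. A methylation table does not show which cell types the organoids held, and their markers were therefore not checked.

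In these data 4 of the 5 genes had listed positions, 227 in all, and 156 of these had a value in all 6 libraries. Trp53 had 22 listed positions and 15 complete sites, Cdkn1a 12 and 8, Mcc 122 and 86, and Dcc 71 and 47; Msh6 had none. A value is the percent of methylation at 1 cytosine. The table holds 0 or values from 40% to 100%, and a 0, which may mean a lower level or a missing call, was treated as no value. The read depth behind each value is unknown. Over the 272327 complete sites of the part of the table used, library means lay between 86.7% and 88.9%, with control replicate 1 the lowest and DM-aKG replicate 3 the highest.

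DNA methylation at the promoter of a tumour suppressor is a known way of silencing it in colorectal cancer, while methylation inside the body of a transcribed gene is common. Trp53 encodes p53, a transcription factor activated by DNA damage, and Cdkn1a encodes p21, the cyclin-dependent kinase inhibitor through which p53 halts the cell cycle. Msh6 encodes a subunit of the complex that recognises DNA mismatches; its loss leaves replication errors unrepaired. Mcc (mutated in colorectal cancers) and Dcc (deleted in colorectal cancer) were both named for lesions in this tumour; Dcc encodes a receptor for the guidance cue netrin.

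No listed position lay within 1000 bases of either end of any of the 5 genes, so every value below comes from a gene body and the comparison at gene ends could not be made for them. Of the 19639 annotated genes, 58.1% had a listed position and 29.3% had one near an end. The nearest listed position to the start of Trp53 was 3747 bases inside the gene, and that to the start of Cdkn1a was 6172 bases upstream of it. Msh6 lay in a gap of the table: the nearest listed positions were 11600 bases below its span and 12138 bases above it. The nearest position was 12390 and 57563 bases from the lower and the higher coordinate end of Mcc, and 26747 and 174450 bases from those of Dcc.

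The promoter sequences of the 3 genes for which RefSeq (GRCm38.p6, the assembly of mm10) gave one are shown because they are what the table leaves blank. Each runs from 250 bases before to 50 bases after an annotated start, 5′ to 3′ on the plus strand. Capitals mark the CpG dinucleotides, whether or not the method could read them. The windows are chr11:69580109-69580408 for Trp53 with 10 CpGs, chr17:29090729-29091028 for the upstream start of Cdkn1a with 2, chr17:29093519-29093818 for its downstream start with 23, and chr17:87974800-87975099 for Msh6 with 37.
Trp53: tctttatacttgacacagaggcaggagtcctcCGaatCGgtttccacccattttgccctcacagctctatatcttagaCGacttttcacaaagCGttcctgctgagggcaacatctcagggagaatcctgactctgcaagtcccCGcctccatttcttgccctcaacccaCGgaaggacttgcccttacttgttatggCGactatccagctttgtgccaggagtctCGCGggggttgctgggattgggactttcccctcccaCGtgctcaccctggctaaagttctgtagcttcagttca
Cdkn1a upstream start: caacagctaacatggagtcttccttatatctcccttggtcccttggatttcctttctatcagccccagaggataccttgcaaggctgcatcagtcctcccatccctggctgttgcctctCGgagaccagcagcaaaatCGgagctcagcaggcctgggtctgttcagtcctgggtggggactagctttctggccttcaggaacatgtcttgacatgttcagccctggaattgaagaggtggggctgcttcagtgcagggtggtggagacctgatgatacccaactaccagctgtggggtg
Cdkn1a downstream start: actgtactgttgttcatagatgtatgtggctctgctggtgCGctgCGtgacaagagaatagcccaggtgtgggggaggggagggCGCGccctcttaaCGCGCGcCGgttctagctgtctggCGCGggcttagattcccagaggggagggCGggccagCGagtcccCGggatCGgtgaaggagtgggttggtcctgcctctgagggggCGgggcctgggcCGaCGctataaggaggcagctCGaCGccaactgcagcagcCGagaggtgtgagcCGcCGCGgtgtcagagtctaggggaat
Msh6: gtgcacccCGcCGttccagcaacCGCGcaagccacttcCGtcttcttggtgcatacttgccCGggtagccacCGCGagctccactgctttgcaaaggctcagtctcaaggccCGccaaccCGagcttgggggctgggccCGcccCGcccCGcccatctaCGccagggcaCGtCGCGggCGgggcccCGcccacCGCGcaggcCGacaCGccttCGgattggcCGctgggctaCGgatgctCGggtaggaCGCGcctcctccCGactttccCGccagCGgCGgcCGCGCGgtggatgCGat

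None of the CpGs in these 4 windows was listed. That was the usual state of promoters in this table: of 18212 windows of the same length on the part of the genome used, 4.32% held a listed position, and of the 4981 windows with 20 or more CpGs, 2.73% did. Whether an unlisted CpG was read and found less methylated, or was not read, cannot be told apart. The window at the upstream start of Cdkn1a also holds a pair of CATG cores spaced as in a p53 binding site, CATGtcttgaCATG, at chr17:29090931-29090944, with the cores in capitals. The letters searched were CATG, any 6 bases and CATG, a pattern that is the same on both strands, and 0.56% of the 18212 windows hold them. This stretch contains 0 CpGs, so methylation of CpGs could not be measured inside it.

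With the gene ends blank, the gene bodies were compared. At the measured sites the bodies of all 4 genes were highly methylated in both groups, and none passed the test of a difference. A high level was built into the measure, since a level averages only sites at 40% or more in all 6 libraries. Over all complete sites the median site mean was 92.5%. Cdkn1a was the most methylated, above 99.1% of the 9195 genes tested. Mcc and Trp53 stood near the middle, at percentiles 47.4 and 39.6, and Dcc was the lowest, at percentile 29.0. By limma with Benjamini-Hochberg adjustment over all genes 0 of these 4 genes passed, against a background of 0% of 9195 genes, and 0 of the 4 had an unadjusted p under 0.05, against 574 genes (6.24%). The differences of the 4 genes are shown here gene by gene, beside a median difference over all genes of 0.733 percentage points, with 66.3% of genes higher with DM-aKG. With library means equalised the median over all genes was -0.177 points and 46.4% were higher. Equalising shifted all sites of a library by the same amount, and shifted values were cut off at 100%. The controls were raised and the DM-aKG libraries lowered. Differences at sites near 100% therefore fell by less than a full shift would give, and library means were not made fully equal.

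Trp53 had a level of 87.9%, 87.4% and 87.3% in the 3 control libraries and of 84.7%, 89.5% and 85.1% with DM-aKG. The controls lay close together and the treated libraries fell on both sides of them. The control mean was 87.6% ± 0.329 (SD, n = 3) and the DM-aKG mean 86.4% ± 2.64, which differ by -1.13 points with a 95% interval from -4.75 to 2.48 (limma adjusted p = 0.883). Leaving out the treated replicates 1, 2 and 3 in turn gave -0.289, -2.66 and -0.456 points, and equalising library means gave -2.14.

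Cdkn1a stood at 97.8%, 95.5% and 98.5% in the controls and at 98.3%, 98.8% and 98.0% with DM-aKG. Control replicate 2 was the only library under 97%, and the groups overlapped. The means were 97.3% ± 1.56 (SD, n = 3) and 98.3% ± 0.382, a difference of 1.08 points with an interval from -1.64 to 3.81 (limma adjusted p = 0.765). Without control replicate 2 the difference was 0.208 points, and with library means equalised 0.246.

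Mcc had a level of 88.0%, 88.2% and 88.1% in the controls, and of 86.7%, 90.6% and 89.4% with DM-aKG. The treated libraries again lay on both sides of the 3 controls. The means were 88.1% ± 0.0878 (SD, n = 3) and 88.9% ± 1.98, a difference of 0.783 points with an interval from -2.24 to 3.81 (limma adjusted p = 0.875). Without DM-aKG replicate 2 the difference was -0.0698 points, and with library means equalised it was -0.139.

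Dcc had the largest difference of the 4 and the widest spread. Its level was 79.9%, 83.1% and 86.6% in the controls and 83.7%, 86.1% and 88.7% with DM-aKG. Control replicate 1, which was also the lowest library over all sites, was lowest here, and control replicate 3 lay above DM-aKG replicates 1 and 2. The means were 83.2% ± 3.35 (SD, n = 3) and 86.2% ± 2.48, a difference of 2.98 points with an interval from -2.11 to 8.07 (limma adjusted p = 0.765). Without control replicate 1 it was 1.33 points, without DM-aKG replicate 3 it was 1.72, and without control replicate 3 it was 4.68. With library means equalised it was 1.98 points.

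**Figure D1:**
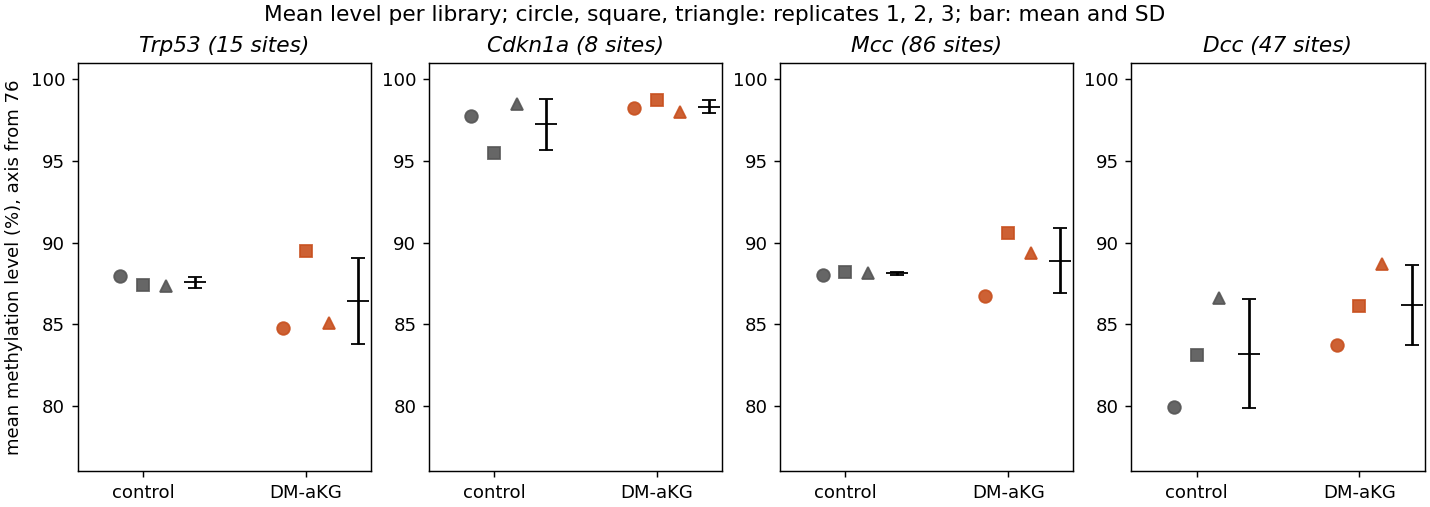
Mean methylation level (%, vertical axis, from 76) of each library over the complete sites of 4 genes, with circles, squares and triangles for replicates 1, 2 and 3 and a black bar at each group mean with its SD (n = 3). Groups overlap in each gene; Cdkn1a lies at 95.5% or more in each library and Dcc spreads from 79.9% to 88.7%.

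Each interval includes 0, and together they hold falls as well as rises: for Trp53 a fall to -4.75 points lies inside it, and for Dcc a rise to 8.07. They apply to the measured sites, which for Cdkn1a fill 1 stretch of the gene, and not to the whole body. An exact permutation test of the group labels (two-sided, 20 assignments, smallest possible p = 0.1) gave 0.4 for Trp53 and Cdkn1a, 0.7 for Mcc and 0.3 for Dcc.

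Within Trp53 the sites fell into 3 clusters, taken as positions no more than 500 bases apart, a spacing chosen after the positions were seen. The first, 3.75 kb into the span, held 10 listed positions and 5 complete sites and averaged 81.9% ± 2.91 (SD, n = 3) without DM-aKG and 82.0% ± 4.53 with it. The second, 8.60 kb in, was at 88.8%, 89.8% and 88.6% in the controls and at 80.8%, 89.2% and 83.0% with DM-aKG. There DM-aKG replicates 1 and 3 lay under all controls and DM-aKG replicate 2 between them, with means of 89.1% ± 0.643 (SD, n = 3) and 84.3% ± 4.36 (exact permutation p = 0.3). The readings that lay farthest below the controls of their site were single ones: 58% at position 69588951 in DM-aKG replicate 3, 61% at 69589005 and 79% at 69589110 in DM-aKG replicate 1. The third cluster, which ends 1535 bases before the end of the gene, was at 91.7% ± 1.60 and 92.9% ± 2.10. Of the 15 complete Trp53 sites 10 were lower with DM-aKG, 4 higher and 1 equal. Position 69590330, in the third cluster, was the only Trp53 site whose groups did not overlap, at 95%, 97% and 85% in the controls and 98%, 100% and 98% with DM-aKG (limma adjusted p = 0.872). Among all complete sites the groups did not overlap at 7.13% (4.63% higher and 2.5% lower with DM-aKG), and for Trp53 the share was 6.67%.

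Cdkn1a was measured in a single stretch of 364 bases that ends 1638 bases before the end of the gene. Each of its 8 complete sites had a mean of 96.0% or more over the 6 libraries, whereas 37.5% of all complete sites were at 95% or more. Readings under 95% were rare: 91% at position 29098731 in control replicate 1 and 80% at 29099084 in control replicate 2. At 29099084 the other controls read 96% and 100% and all 3 DM-aKG libraries read 100%, and this site carried the low mean of control replicate 2. None of the 8 sites had groups that did not overlap.

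**Figure D2:**
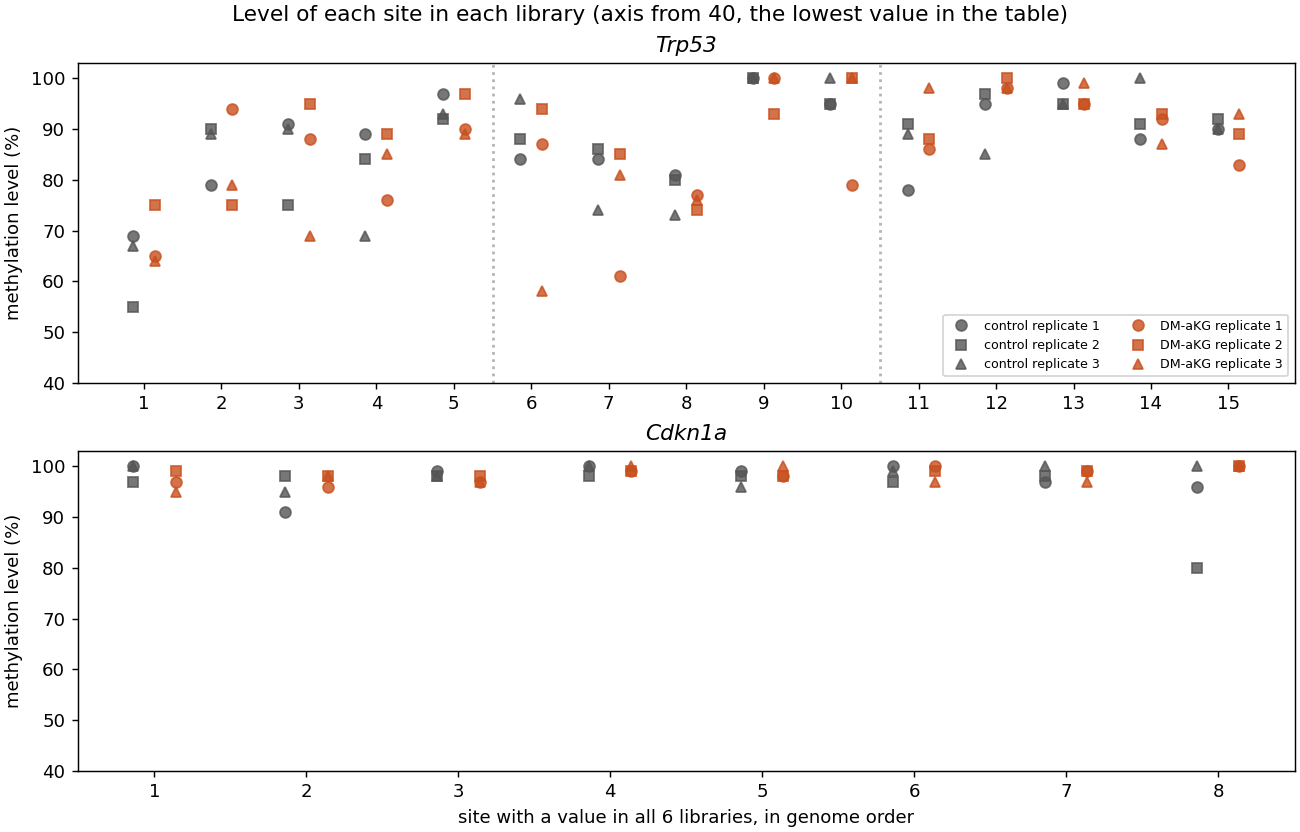
Methylation level (%, vertical axis, from 40) of each site with a value in all 6 libraries (horizontal axis, in genome order) for Trp53 and Cdkn1a, with grey for control, orange for DM-aKG and symbols for replicates; dotted lines part the clusters. Trp53 sites spread from 55% to 100% within and between libraries, and the Cdkn1a sites lie at 91% or more except for 1 reading of 80%.

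Mcc, a gene of 387123 bases, had listed positions from 29.4 to 325 kb into its span in 15 clusters, of which 13 held a complete site. In 6 of the 13 the DM-aKG mean was higher and in 7 it was lower. Its site means ranged from 61.7% to 100%, with 12 of 86 sites under 80% and 25 at 95% or more. One cluster had groups that did not overlap, against 10.7% of 41967 clusters on the part of the genome used (8.01% higher and 2.65% lower with DM-aKG): it lay 34.7 kb into the span, held 15 complete sites, and was at 89.3%, 93.2% and 91.9% in the controls and 93.7%, 95.3% and 94.1% with DM-aKG. Its means were 91.5% ± 1.97 (SD, n = 3) and 94.3% ± 0.833, and the exact permutation p was 0.1. The neighbouring cluster 29.4 kb in, with 13 sites, was at 83.3% ± 2.25 and 86.0% ± 4.07 and overlapped. In the cluster 111 kb in, which also lies within 1000 bases of the lncRNA Gm52347 and cannot be assigned to 1 of the genes, the values were 77.9% ± 5.15 and 77.0% ± 5.43.

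Of the 86 single Mcc sites 40 were higher, 42 lower and 4 equal. At 5 (5.81%) the groups did not overlap, against 7.13% of all complete sites (4.63% higher and 2.5% lower with DM-aKG). Position 44454571 was at 62%, 84% and 87% in the controls and 95%, 100% and 93% with DM-aKG. Position 44454617 was at 60%, 72% and 68% against 77%, 88% and 80%, and had the smallest adjusted p of the gene (limma adjusted p = 0.835). Position 44459794 was at 90%, 90% and 98% against 100% in each treated library. These 3 sites were higher with DM-aKG. Lower with DM-aKG were position 44535969, at 100%, 98% and 100% against 97%, 97% and 95%, and position 44577218, at 98% in each control against 93%, 95% and 97%.

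Dcc, the longest of the genes at 1097616 bases, was measured in 17 clusters, 13 of them with a complete site. Of those 13 the mean was higher with DM-aKG in 10 and lower in 3, and of 10 equal segments of the gene, 9 of which held a complete site, it was higher in 7 and lower in 2. Of the 41967 clusters in the whole table, 62.1% were higher with DM-aKG and 36.1% lower. Dcc had more partly methylated sites than the other genes, with 15 of 47 under 80%, compared with 20.9% of all complete sites. These 15 averaged 60.8%, 67.1% and 72.8% in the controls and 65.5%, 71.4% and 76.9% with DM-aKG, and the remaining 32 sites 90.8% ± 2.12 (SD, n = 3) and 93.2% ± 0.979. Over all complete sites of the table the same classes stood at 67.6% ± 1.42 and 70.0% ± 1.26, and at 92.8% ± 0.551 and 93.5% ± 0.0428. The spread between the Dcc controls in the partly methylated class, 6.00 points, was larger than its difference of 4.33 points.

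The densest Dcc cluster held 17 sites, 377 kb into the span, and had 85.3%, 84.4% and 88.8% in the controls and 87.4%, 89.2% and 90.3% with DM-aKG. Control replicate 3 overlapped the treated libraries there. A cluster 333 kb into the span, with 4 complete sites, was at 70.0%, 77.0% and 77.3% against 82.8%, 78.8% and 84.5%. It was the only 1 of the 13 Dcc clusters with a complete site whose groups did not overlap. Among all clusters the groups did not overlap in 10.7% (8.01% higher and 2.65% lower with DM-aKG). The cluster 821 kb in went the other way, at 79.3% ± 9.43 (SD, n = 3) and 77.0% ± 6.16. Single Dcc sites were higher at 28, lower at 14 and equal at 5 of 47, and at 3 (6.38%) the groups did not overlap, all higher with DM-aKG. Over all complete sites 53.3% were higher and 40.3% lower, and the groups did not overlap at 7.13%, so the share of Dcc sites with separate groups was near that of the table. Position 72007240 was at 50%, 46% and 42% in the controls and 54%, 71% and 67% with DM-aKG (limma adjusted p = 0.823). Position 71630946 was at 52%, 61% and 65% against 67%, 76% and 78%, and position 71586457 at 78%, 79% and 68% against 86%, 80% and 81%.

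**Figure D3:**
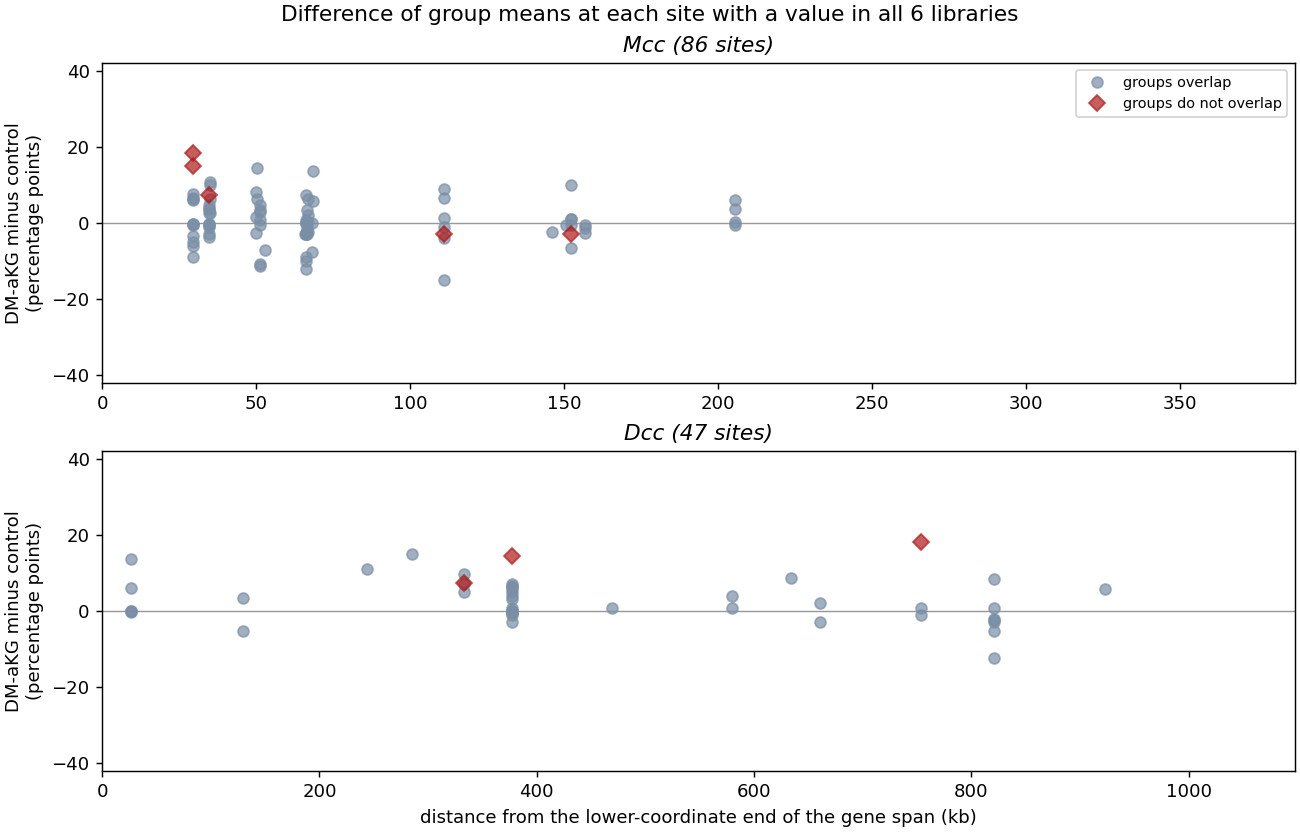
Difference of group means at each complete site (percentage points, DM-aKG minus control, vertical axis) against the distance from the lower-coordinate end of the gene span (kb, horizontal axis) for Mcc and Dcc, with diamonds for sites whose groups do not overlap. Mcc sites scatter on both sides of 0, 40 higher and 42 lower; of the Dcc sites 28 lie above 0 and 14 below.

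None of the 156 complete sites of the 4 genes passed limma adjusted over all sites, against a background of 0% of 272327 sites. At an unadjusted p under 0.05 there were 2 sites in Mcc, 3 in Dcc and 0 in Trp53 and Cdkn1a, against 14803 sites (5.44%) in the table.

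The opposite strands of a CpG give a yardstick for single readings, since they are measured as separate positions 1 base apart. In Mcc 28 CpGs had complete values on both strands, and the strands of a CpG differed by a mean of 7.43 points within a library. The gap was 8.12 points over 13 CpGs of Dcc, 7.42 points over 6 of Trp53 and 1.44 points over 3 of Cdkn1a, compared with 6.88 points over 102114 CpGs of the table. The median gap was 6, 1, 5 and 6 points in Trp53, Cdkn1a, Mcc and Dcc, and the median size of the group difference at these CpGs was 2.67, 0.5, 2.33 and 3.5 points. A gap compares single readings and a group difference compares means of 3 libraries, so the 2 sizes are not on equal terms. In Mcc the strands gave the same direction of group difference at 13 CpGs and the opposite one at 14, in Dcc at 6 and 4, in Trp53 at 4 and 1, and in Cdkn1a at 0 and 1. Over the 102114 CpGs it was the same at 48.8% and opposite at 39.3%.

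The number of positions that held a value was compared next, because a position can drop out of a library altogether. Trp53 had a value at 21, 18 and 17 of its 22 positions in the controls and at 16, 19 and 18 with DM-aKG. Cdkn1a had 12, 12 and 8 of 12, against 8, 11 and 8. Mcc had 102, 113 and 119 of 122, against 105, 95 and 108. Dcc had 58, 63 and 61 of 71, against 63, 55 and 64. The groups overlapped in each gene. The shares with a value were 84.8% ± 9.46 (SD, n = 3) and 80.3% ± 6.94 for Trp53, 88.9% ± 19.2 and 75% ± 14.4 for Cdkn1a, 91.3% ± 7.07 and 84.2% ± 5.58 for Mcc, and 85.4% ± 3.54 and 85.4% ± 6.95 for Dcc. By limma on the log2 odds of a value 0 of the 4 genes passed, against a background of 0.454% of 10359 genes (0.443% for body positions, which for these genes are the same ones, and 0.655% for end positions, of which they have none), with adjusted p-values of 0.793, 0.668, 0.633 and 1. At an unadjusted p under 0.05 there were 0 of the 4 genes and 782 (7.55%) of all genes. Over the whole part of the table used, the libraries had a value at 83.7% to 88.6% of positions.

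**Figure D4:**
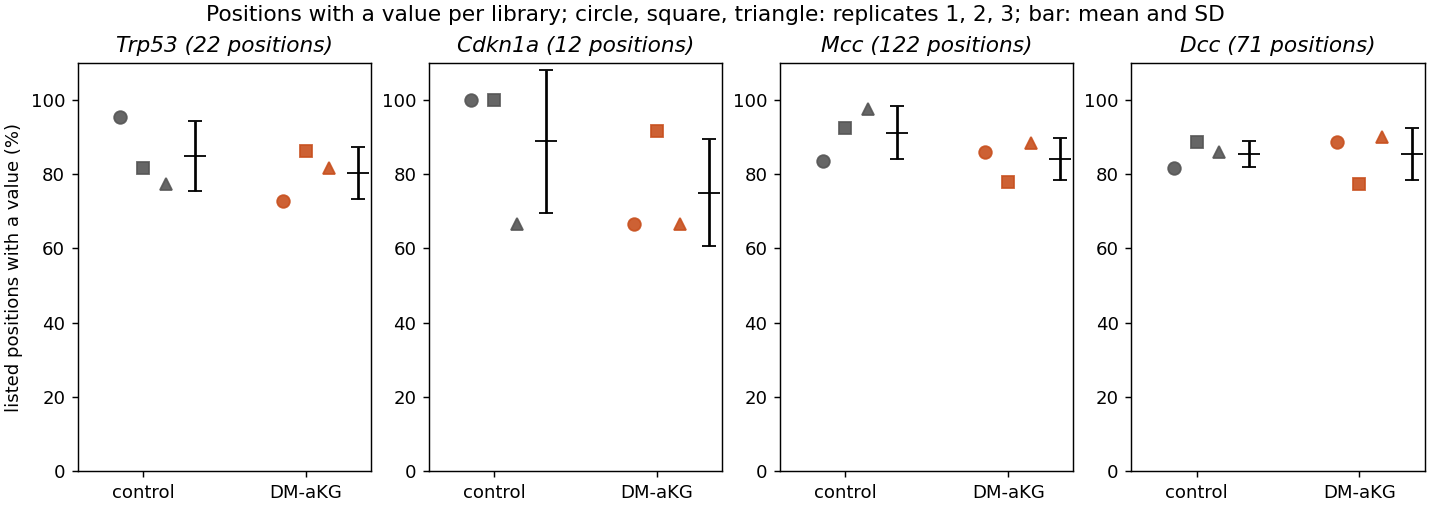
Share of the listed positions of each gene that held a value in each library (%, vertical axis from 0), with circles, squares and triangles for replicates 1, 2 and 3 and bars for the mean and SD (n = 3). Cdkn1a falls to 66.7% in control replicate 3 and DM-aKG replicates 1 and 3, and the groups overlap in each gene.

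Positions dropped out in blocks, so their number overstates how many separate events there were. In Cdkn1a 3 adjacent positions, from 29098794 to 29098816, had a value in control replicates 1 and 2 and DM-aKG replicate 2 only, and position 29099032 in control replicates 1 and 2 only. Every value at these 4 positions was 100%. In Mcc 6 positions from 44490963 to 44491160 had a value in control replicates 2 and 3 and DM-aKG replicate 1 only, again 100% throughout. The listed position 1 base before each of the 6, on the opposite strand of the same CpG, had a value in 5 or 6 libraries. A Mcc cluster 315 kb into the span had 8 listed positions and no complete site, with a value at 4, 7 and 8 of them in the controls and 1, 1 and 5 in the treated libraries. Of the 36 incomplete Mcc positions 24 had a value in more control than DM-aKG libraries, 6 in more DM-aKG libraries and 6 in as many. Dcc had 10, 9 and 5 in these classes, Trp53 4, 3 and 0, and Cdkn1a 4, 0 and 0. Of the 117881 incomplete positions of the table, 44.3% had a value in more control libraries, 41.4% in more DM-aKG libraries and 14.3% in as many. Other blanks stood beside values near the floor of the table: in Trp53 position 69589074 read 46% and 42% in control replicates 1 and 3 and had no value elsewhere, while the adjacent 69589075 read 44% to 60% in 5 libraries. Position 44739889 in Mcc, at 100%, 67% and 57% in the controls and without a value in any DM-aKG library, was the only position of the 227 with a value in all libraries of 1 group and in none of the other. Over all listed positions, 0.459% had values in the controls alone in this way and 0.314% with DM-aKG alone, so 1 in 227 is near the background. Whether a blank is a level under 40% or a position that was not read was not tested.

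The 4 genes were set beside other genes of their pathways. Only genes with at least 3 complete sites were tested, which left out much of each list. With the 4 genes included, 24 of 46 colorectal tumour suppressors, 8 of 25 mismatch repair genes and 10 of 24 p53 regulators were tested. So were 8 of 32 p53 targets, 7 of 25 cell cycle genes and 15 of 28 netrin genes. Among 20 other colorectal tumour suppressor genes with a value, 12 were higher and 8 lower with DM-aKG, and the median difference was 0.317 points, compared with 66.3% higher and a median of 0.733 points over all genes. The direction was not stable: the median was -0.475 points, with 7 higher and 13 lower, when library means were equalised, and -0.0855 without control replicate 2. Epcam, an epithelial adhesion gene, had groups that did not overlap, at 92.3%, 88.8% and 89.2% in the controls and 88.2%, 86.8% and 88.7% with DM-aKG (limma adjusted p = 0.764); over all genes the groups did not overlap in 13.8% (11.3% higher and 2.53% lower with DM-aKG). The 8 measured mismatch repair genes, Msh6 not among them, were higher in 3 and lower in 5 (median -0.701 points). Their median was -1.57 points with library means equalised and -0.266 without control replicate 2. The 2 with the smallest p differed in direction, and the groups overlapped in both. Pold2, with 3 sites, was at 91.2% ± 1.17 (SD, n = 3) and 95.8% ± 4.44 with DM-aKG. Exo1 was at 86.8% ± 1.10 and 84.9% ± 1.81.

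Around p53, 9 regulators other than Trp53 were higher in 2 and lower in 7 (median -0.303 points), among them Wrap53, the gene next to Trp53, which was at 97.0%, 95.3% and 95.6% in the controls and 95.1%, 95.2% and 94.2% with DM-aKG. Its groups did not overlap, as in 13.8% of all genes (11.3% higher and 2.53% lower with DM-aKG), and its sites are not shared with Trp53. The median of the 9 was 0.122 points, with 6 higher and 3 lower, without DM-aKG replicate 1, and -1.25 with library means equalised. Of 7 p53 target genes other than Cdkn1a 5 were higher and 2 lower (median 0.642 points), including the apoptosis gene Pmaip1 at 95.2% ± 1.24 (SD, n = 3) and 97.2% ± 1.43. Their median was -0.310 points, with 3 higher and 4 lower, with library means equalised, and 0.188 without control replicate 2. The 6 other cell cycle inhibitors and G1 regulators with a value had 5 higher and 1 lower (median 0.262 points). Theirs was -0.537 points, with 2 higher and 4 lower, with library means equalised, and -0.465 without DM-aKG replicate 2.

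The netrin receptors and signalling genes other than Dcc were higher in 11 and lower in 3 of 14, with a median of 1.28 points, against the 66.3% of all genes that were higher. Without control replicate 1 the median was 0.181 points with 8 higher and 6 lower, and with library means equalised it was 0.353 with 9 higher and 5 lower. Unc5a, another netrin receptor, stood at 78.1% ± 2.46 (SD, n = 3) without DM-aKG and 81.5% ± 0.516 with it over 164 sites, and the focal adhesion kinase gene Ptk2 at 91.5% ± 0.234 and 94.2% ± 2.07. In both genes the groups did not overlap, as in 3 of the 14 genes of the list and 13.8% of all genes (11.3% higher and 2.53% lower with DM-aKG). For Ptk2 the margin was small, with control replicate 2 at 91.73% and DM-aKG replicate 2 at 91.80%. None of the genes in these lists passed limma adjusted over all genes, none had an unadjusted p under 0.05, and their adjusted p-values were 0.764 or more.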

How the data were processed

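Reduced representation bisulfite libraries of 3 control and 3 DM-aKG organoid replicates were used. For every listed cytosine the deposited table holds 1 percent of methylation per library, as a whole number; it holds no read counts, so no coverage minimum or interval from depth could be applied. Per the submitters' processing notes the build was mm10 and the tools were CASAVA 1.8 and Novoalign 3.08.02; the methylation caller is not given in the sources used here. Of its 813850 rows, the first 47.9% were used, because after them 4 libraries no longer line up with the positions. The start column counts from 1: of 4225 listed positions inside RefSeq promoter windows, 4222 fall on a C or a G.

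A gene's level is the mean over sites with a value in all 6 libraries, from 1000 bases before to 1000 bases after its span (GRCm38.p6), with at least 3 sites; ends (within 1000 bases, at least 1 site) and bodies were also fitted apart. The test of gene levels was limma (version 3.58.1, R 4.3.3), run on their log2 odds with an offset of 0.01, single sites on the untransformed percent, and the share of listed positions with a value on log2 odds with 0.5 added to both counts, in genes with at least 3 positions. Groups were compared without a block, with Benjamini-Hochberg adjustment over all features and a threshold of 0.05; intervals come from limma on untransformed levels. All members are named. Of each pathway list up to 2 other genes with the smallest p could be named. Apart from Pold2, Exo1 and Ptprt, those named were the genes of these 2 per list whose groups did not overlap. Other genes of a list whose groups did not overlap were not named. Of members' body sites, those with groups apart could be named, up to 5 each way. Other sites and clusters named were chosen after their values were seen. The members and lists were chosen with earlier results of these data known. On simulated data, limma found 85 of 200 genes (of 9195) when these were shifted down 10 points, with 0 false calls, and 170 when shifted 20 points, with 10 false calls. It found 87 of 200 sites (of 272327) shifted down 50 points, with 19 false calls, and 91 of 200 genes (of 10359) whose share with a value was lowered by 4 in log2 odds, with 2 false calls. Only falls were simulated, and simulated levels could lie under the 40% floor of the table, where a real site has no value. The counts therefore do not show how often rises, or falls below that floor, would be found.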

Additional observations from a re-analysis of the deposited data

How the results depend on the processing

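No level of the 4 genes and no share of their positions passed the threshold under any alternative. Trp53 stayed lower (-2.79 to -0.0403 points) and Dcc higher (1.33 to 4.68 points) with DM-aKG. Reading the blanks as 0% gave differences of -13.2 points for Cdkn1a and -5.81 for Mcc, and -13.5 for Pmaip1 and -4.93 for Ptk2; that setting turns every missing value into a low level. For the pathway lists without the 5 genes it gave medians of -2.31 (colorectal tumour suppressors), -4.82 (mismatch repair), -1.11 (p53 regulators), -0.467 (p53 targets), -1.18 (cell cycle) and 2.14 points (netrin), and -0.111 over all genes. Mcc was at -0.139 with library means equalised and at -0.0698 to 1.87 with single replicates left out (lowest without DM-aKG replicate 2). For the share with a value, the difference in log2 odds was -0.56 for Trp53. Its range was from -0.99 to 0.10 (highest without control replicate 1) as single replicates were left out. For Dcc the difference was 0.06, with a range from -0.20 to 0.48. It was below 0 without DM-aKG replicate 1 (-0.10), DM-aKG replicate 3 (-0.20) and control replicate 1 (-0.14). For Cdkn1a it was -1.81 (-3.05 to -1.19) and for Mcc -1.23 (-1.91 to -0.52), below 0 whichever replicate was left out. With ends of 2000 bases Trp53 had 5 end sites (91.7% ± 1.60 and 92.9% ± 2.10, SD, n = 3) and Cdkn1a 7 (97.0% ± 1.55 and 98.5% ± 0.165, groups not overlapping), with limma adjusted p-values of 0.888 and 0.832. For Cdkn1a the margin was small, with control replicate 3 at 98.29% and DM-aKG replicates 1 and 3 at 98.43%. The remaining complete site, position 29098721, lay just outside this width. Over all 8 complete sites the groups overlapped (exact permutation p = 0.4). The share of all genes with separate groups at ends of this width was not counted.

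Counts over all features: the gene test called 0, and 1 on untransformed levels, 1 with at least 1 site, and 7 with 0 as a level. At gene ends it called 0, and 1 with ends of 500 bases, 31 with 0 as a level, and 0 to 3 with single replicates left out. In gene bodies it called 0, and 1 on untransformed levels, 3 with 0 as a level, and 0 to 1 with single replicates left out. The site test called 0, and 407 on log2 odds, and 0 to 9 with single replicates left out. In earlier work on these data, log2 odds of single sites called more unchanged than changed simulated sites, so that scale was not the main one. The share test called 47 genes, and 4 with library totals equalised, 19 with at least 10 positions, and 140 to 341 with single replicates left out. For ends it called 29, and 11 with totals equalised, and 80 to 177 with single replicates left out; for bodies 38, 8, and 115 to 318. The cause of these changes in the counts was not tested.

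The labels do not say whether a shared replicate number marks a shared batch. Deviations from the group means correlated at 0.014, -0.0163 and -0.0187 over genes for same-numbered replicates. For the other pairs the correlations ran from -0.0376 to 0.0476. A shift common to all genes of a library would not show in such correlations. With a replicate block the share test called 0 genes, and 12 for bodies, and the Dcc level had a limma adjusted p of 0.717. The unknown read depth limits every value.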
